A study of Rattus norvegicus with 12 samples.

Results

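The genes described here carry and regulate salt reabsorption in the thick ascending limb of the loop of Henle and in the distal convoluted tubule. They are 9 of the 13151 genes in the deposited table, chosen by name: Slc12a1, Slc12a3, Umod, Kcnj1, Kcnj10, Bsnd, Wnk1, Wnk4 and Stk39. All 9 were found and all 9 passed the filter on low values, as did 11633 genes in all. Every one of these rats was a 32-week-old male, and the tissue was kidney cortex. ZL rats were Zucker Lean controls (4 rats, numbered 1 to 4). ZF rats were leptin receptor-deficient Zucker Fatty rats without treatment (4 rats, numbered 2 to 5). ZF-SGLT2i rats were Zucker Fatty rats given canagliflozin, an inhibitor of the sodium-glucose cotransporter SGLT2, at 10 mg/kg/day in the food, begun at 24 weeks of age and kept up for 8 weeks (4 rats, numbered 2, 3, 4 and 6). The receptor deficiency is in every cell of the ZF and ZF-SGLT2i rats, and the food intake of the treated rats per body weight was matched to that of untreated ones. The study's methods describe ZL rats only in an arm in which kidney biopsies had been taken earlier, which also held ZF rats. The sequenced untreated rats are called ZF in the labels, as in that arm, but the study also gives them the name of the untreated group of the canagliflozin experiment, for which no biopsy is described, so their arm is not settled here. An effect of biopsy cannot be told apart from a difference between ZF-SGLT2i and ZL. Depending on the arm of the ZF rats, the same holds for ZF against ZL or for ZF-SGLT2i against ZF.

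In the thick limb, the apical cotransporter NKCC2 (Slc12a1) takes up sodium, potassium and chloride, the channel ROMK (Kcnj1) returns the potassium to the lumen, and chloride leaves across the basolateral side through channels that need the subunit barttin (Bsnd). In the distal convoluted tubule, the thiazide-sensitive cotransporter NCC (Slc12a3) takes up sodium and chloride, and the basolateral channel Kir4.1 (Kcnj10) sets the membrane voltage that a chloride-sensitive kinase cascade responds to. That cascade runs from the WNK kinases (Wnk1, Wnk4) to SPAK (Stk39), which phosphorylates NCC and NKCC2. Uromodulin (Umod) is the protein that thick limb cells secrete into urine. The activity of both cotransporters depends largely on phosphorylation, which RNA does not show.

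Values are read counts scaled to library size, as CPM with the trimmed mean of M-values (TMM) factors of the edgeR package. Between 8824980 and 12210257 reads per rat lay on genes. The least covered of the 9 genes was Kcnj10, with 435 to 678 reads per rat. Counting error, taken as the square root of the mean reads, was smaller than the SD between rats in 26 of the 27 pairs of a gene and a group, the exception being Bsnd in ZF-SGLT2i (2.79% against 1.83%). Levels are compared between groups for 1 gene at a time, because the values are not divided by transcript length. Tests across genes were made with limma on log2(value + 1), and a gene was called at a Benjamini-Hochberg adjusted p under 0.05. Whole cortex was sequenced, so fewer cells of a type and less RNA per cell cannot be told apart.

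Of the 9 genes, 4 differed between ZF-SGLT2i and ZL rats: Slc12a3, Wnk4 and Kcnj10 were higher and Umod was lower in ZF-SGLT2i. These groups differ in both genotype and drug. None of the 4 was called by limma in ZF-SGLT2i against ZF, which differs by the drug and possibly by biopsy. The background in ZF-SGLT2i against ZL was large, since 27.4% of the genes tested were called, 12.4% as higher and 15.0% as lower. By limma, none of the 9 was called in ZF against ZL (background 18.8%) or in ZF-SGLT2i against ZF (background 3.15%). At an unadjusted limma p under 0.05, 1 of the 9 passed in ZF against ZL, where 33.1% of all genes did, and 4 of the 9 passed in ZF-SGLT2i against ZF, where 17.2% did. edgeR on the recovered reads called 0 of the 9 in both comparisons (18.7% and 3.16% of all genes), and DESeq2 called 0 in ZF against ZL (20.3% of all genes) and 2, Umod and Wnk4, in ZF-SGLT2i against ZF (5.51%). In ZF-SGLT2i against ZL each of these tools called 5 of the 9, the 4 above and Slc12a1, where edgeR called 27.6% and DESeq2 28.2% of all genes. The groups of 4 did not overlap for 0 of the 9 genes in ZF against ZL (19.0% of all genes), for 3 in ZF-SGLT2i against ZF (11.2%) and for 3 in ZF-SGLT2i against ZL (28.0%). The median log2 fold change of the 9 genes was 0.0067 in ZF against ZL, 0.21 in ZF-SGLT2i against ZF and 0.21 in ZF-SGLT2i against ZL, against -0.0077, 0.0064 and -7.0e-05 for all genes tested. These comparisons share rats, so their values are given side by side only.

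**Figure D1:**
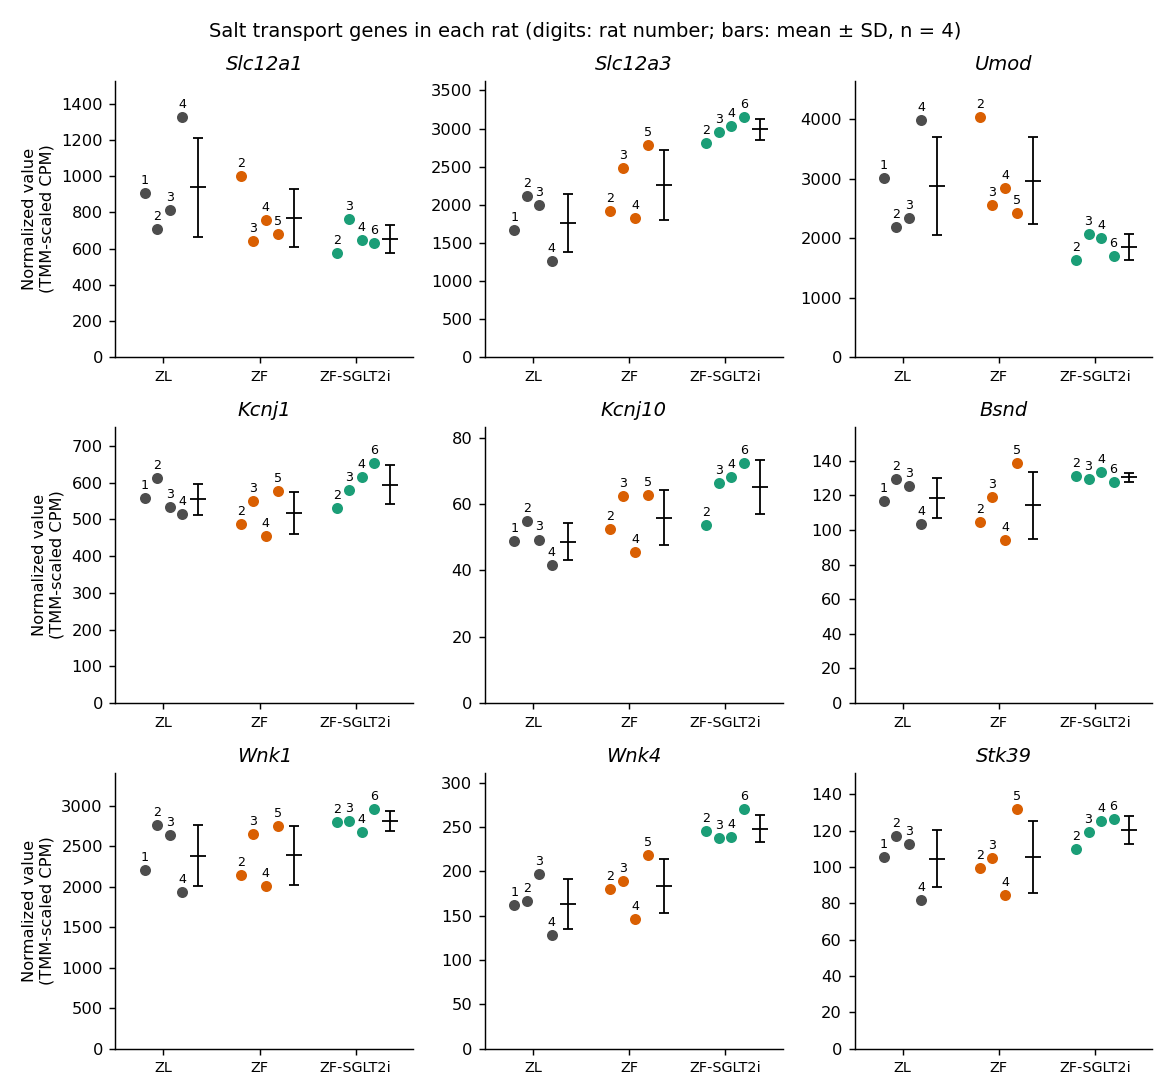
Normalized value (TMM-scaled CPM, y axis from 0) of each of the 9 genes in each rat, by group, with the mean and SD of 4 rats as a bar beside the points and rat numbers above them. Slc12a3 and Wnk4 lie higher in all 4 ZF-SGLT2i rats than in any other rat, and Umod lies lower in all 4 than in any other rat.

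Slc12a3, the NaCl cotransporter of the distal convoluted tubule, was highest in the ZF-SGLT2i rats. In ZL rats 1 to 4 its values were 1671, 2115, 1991 and 1258, in ZF rats 2 to 5 they were 1925, 2487, 1826 and 2784, and in ZF-SGLT2i rats 2, 3, 4 and 6 they were 2812, 2959, 3035 and 3151. Every ZF-SGLT2i rat lay above every rat of the other groups, while ZL and ZF overlapped. The mean was 1759 ± 383 in ZL rats, 2255 ± 457 in ZF rats and 2989 ± 142 in ZF-SGLT2i rats (SD, n = 4 each). Against ZL, the ZF-SGLT2i level was 1.73-fold, a log2 fold change of 0.79 (SE 0.17, limma adjusted p = 0.0037), and it was called under every alternative fit. Against ZF, the log2 fold change was 0.43 (SE 0.17, limma adjusted p = 0.20). From ZL to ZF the log2 fold change was 0.36 (SE 0.17, limma adjusted p = 0.14). It was called only with quantile normalization, at 0.64 and an adjusted p of 0.017, and it was 0.21 without ZL rat 4.

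Wnk4, a kinase at the head of the cascade to NCC, had the same order of group means. Its values were 162, 167, 197 and 128 in ZL, 180, 189, 146 and 219 in ZF, and 246, 237, 239 and 271 in ZF-SGLT2i. Again the lowest ZF-SGLT2i rat was above the highest rat of either other group, and ZL and ZF overlapped. In ZF-SGLT2i the level was 1.53-fold that of ZL (log2 fold change 0.61, SE 0.13, limma adjusted p = 0.0031), which was called under every alternative fit. Against ZF the log2 fold change was 0.45 (SE 0.13, limma adjusted p = 0.075). That value passed the threshold with DESeq2 (adjusted p = 0.023), in a fit of only the 2 groups (adjusted p = 0.035), and in fits without ZL rat 3 (adjusted p = 0.0499), ZL rat 4 (adjusted p = 0.029) or ZF rat 5 (adjusted p = 0.028). Between ZF and ZL it was 0.17 (SE 0.13, limma adjusted p = 0.38), and 0.058 without ZL rat 4, 0.079 without ZF rat 5, 0.26 without ZL rat 3 or 0.27 without ZF rat 4.

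Wnk1 and Stk39, the other kinases of the cascade, were not called by limma in any comparison at the main settings. Wnk1 measured 2209, 2758, 2635 and 1936 in ZL, 2146, 2650, 2012 and 2752 in ZF, and 2800, 2806, 2672 and 2964 in ZF-SGLT2i. The lowest ZF-SGLT2i rat lay within the range of both other groups. The log2 fold change of Wnk1 was 0.25 (SE 0.13) both against ZF (limma adjusted p = 0.38) and against ZL (limma adjusted p = 0.18), with a 95% interval of -0.04 to 0.54 against ZL. The value against ZL was 0.50 and called with quantile normalization (adjusted p = 0.017), and 0.16 without ZL rat 4. Reads of the full-length and the kidney-specific Wnk1 transcripts were summed here and cannot be told apart. Stk39 measured 106, 117, 113 and 82.1 in ZL, 99.5, 105, 84.7 and 132 in ZF, and 110, 119, 125 and 127 in ZF-SGLT2i. The groups overlapped, and ZF rat 5 was the highest of all. Stk39 in ZF-SGLT2i differed from ZL by 0.21 on the log2 scale (SE 0.13, limma adjusted p = 0.23, 95% interval -0.06 to 0.48), which became 0.10 without ZL rat 4. ZF and ZL means of both genes were close, with log2 fold changes of 0.0049 for Wnk1 (95% interval -0.28 to 0.29) and 0.0067 for Stk39 (95% interval -0.26 to 0.28), and their sign changed with the rat left out.

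Kcnj10, the basolateral potassium channel, was in ZF-SGLT2i at 1.33-fold its ZL level. In ZL the values were 48.9, 55.0, 49.3 and 41.6, in ZF 52.6, 62.3, 45.6 and 62.9, and in ZF-SGLT2i 53.6, 66.4, 68.2 and 72.5. Of the ZF-SGLT2i rats, 3 were above all other rats and rat 2 was below the highest ZL rat. Against ZL the log2 fold change was 0.41 (SE 0.12, limma adjusted p = 0.019). Among the fits without 1 rat, this call was lost without ZL rat 4 (0.34, adjusted p = 0.054), without ZF-SGLT2i rat 3 (0.40, adjusted p = 0.0502) or without ZF-SGLT2i rat 6 (0.36, adjusted p = 0.064). It was 0.19 (limma adjusted p = 0.29) from ZL to ZF and 0.22 (limma adjusted p = 0.36) from ZF to ZF-SGLT2i, both with an SE of 0.12. These became 0.12 without ZL rat 4 and 0.13 without ZF rat 4.

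Kcnj1, the apical potassium channel, and Bsnd, the chloride channel subunit, were not called in any comparison. Kcnj1 measured 558, 613, 535 and 515 in ZL, 488, 550, 455 and 577 in ZF, and 531, 579, 616 and 654 in ZF-SGLT2i. The groups overlapped in each comparison. Its log2 fold changes were -0.10 in ZF against ZL (95% interval -0.30 to 0.09), 0.20 in ZF-SGLT2i against ZF (0.01 to 0.40) and 0.10 in ZF-SGLT2i against ZL (-0.09 to 0.29), with limma adjusted p-values of 0.46, 0.26 and 0.45. Quantile normalization turned the first of these to 0.09 and raised the last to 0.31 (adjusted p = 0.044). Without 1 rat the first ranged from -0.16 to -0.044 and the last from 0.052 to 0.15. Bsnd measured 117, 129, 125 and 103 in ZL, 105, 119, 94.4 and 139 in ZF, and 131, 129, 133 and 128 in ZF-SGLT2i. The 4 ZF-SGLT2i rats were close together, between 128 and 133, inside the wider spread of ZF. Bsnd differed by 0.20 on the log2 scale in ZF-SGLT2i against ZF (SE 0.10, limma adjusted p = 0.33) and by 0.14 in ZF-SGLT2i against ZL (SE 0.10, limma adjusted p = 0.33). These became 0.12 without ZF rat 4 and 0.075 without ZL rat 4. From ZL to ZF the log2 fold change of Bsnd was -0.064 (limma adjusted p = 0.70), and 0.022 without ZF rat 4.

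Slc12a1, the NaK2Cl cotransporter of the thick limb, had its lowest mean in the ZF-SGLT2i rats. ZL rats measured 904, 709, 811 and 1326, ZF rats 1001, 643, 758 and 679, and ZF-SGLT2i rats 574, 763, 645 and 632. ZL rat 4 and ZF rat 2 were above the rest of their groups, and all 3 groups overlapped. The mean was 938 ± 271 in ZL rats, 770 ± 161 in ZF rats and 653 ± 79.3 in ZF-SGLT2i rats (SD, n = 4 each). In ZF-SGLT2i against ZL the log2 fold change was -0.49 (SE 0.18, limma adjusted p = 0.055). This value was just past the threshold with edgeR (adjusted p = 0.048), with DESeq2 (adjusted p = 0.020), without ZL rat 2 (-0.61, adjusted p = 0.022) and without ZF rat 2 (adjusted p = 0.039), and it fell to -0.31 without ZL rat 4. Neither of the smaller steps was called, -0.26 from ZL to ZF (limma adjusted p = 0.33) and -0.22 from ZF to ZF-SGLT2i (limma adjusted p = 0.57). Single rats moved both: the first was -0.083 without ZL rat 4 and -0.40 without ZF rat 2, and the second was -0.090 without ZF rat 2.

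Umod, the secreted thick limb protein, had its lowest values in the ZF-SGLT2i rats. Its values were 3014, 2190, 2333 and 3985 in ZL, 4034, 2559, 2850 and 2418 in ZF, and 1641, 2072, 2007 and 1704 in ZF-SGLT2i. The highest ZF-SGLT2i rat was below the lowest ZL and the lowest ZF rat, while ZL and ZF covered nearly the same range. The group means were 2881 ± 819, 2966 ± 735 and 1856 ± 215 (SD, n = 4 each). Against ZL the log2 fold change was -0.60 (SE 0.19, limma adjusted p = 0.035). Among the other scalings and the fits without 1 rat, the call was lost with quantile normalization (-0.26, adjusted p = 0.34) and when any 1 of ZL rats 1 and 4 and ZF-SGLT2i rats 2, 3 and 6 was left out, with values of -0.56, -0.43, -0.54, -0.66 and -0.56 in that order. Against ZF the log2 fold change was -0.65 (SE 0.19, limma adjusted p = 0.092). It was called with DESeq2 (-0.68, adjusted p = 0.011), in a fit of only the 2 groups (adjusted p = 0.040) and without ZL rat 4 (adjusted p = 0.036). From ZL to ZF it was 0.05 (SE 0.19, limma adjusted p = 0.88).

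**Figure D2:**
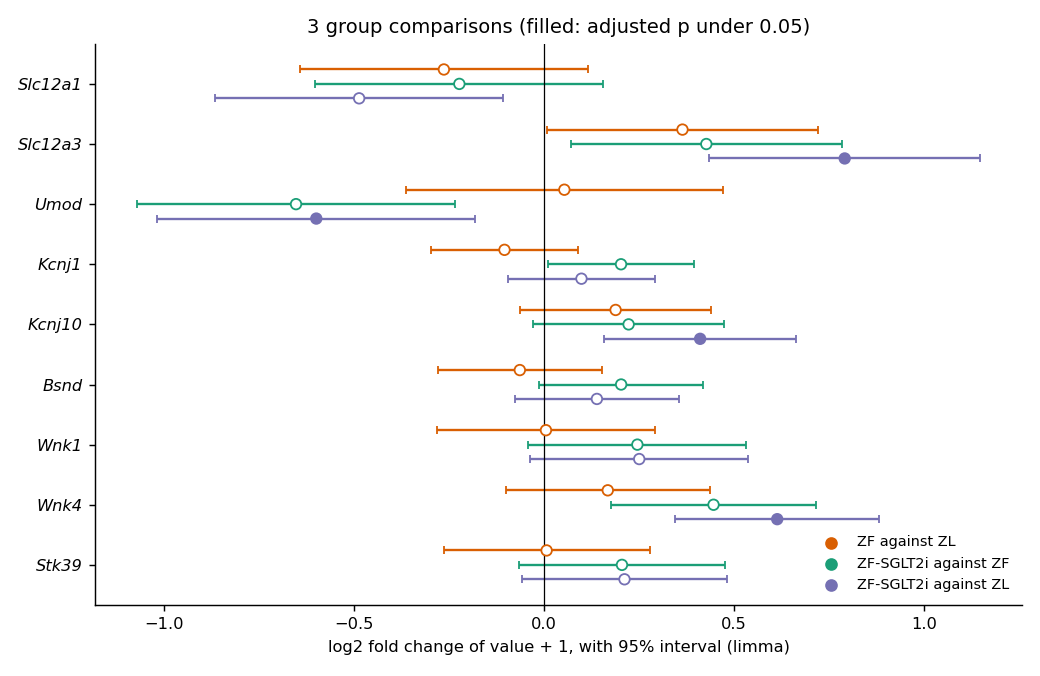
Log2 fold change on the log2(value + 1) scale (x axis) with its 95% interval for each of the 9 genes in the 3 comparisons, from limma; filled points had an adjusted p under 0.05. The filled points are Slc12a3 (0.79), Wnk4 (0.61), Kcnj10 (0.41) and Umod (-0.60), all in ZF-SGLT2i against ZL.

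In each group, the rat highest in the thick limb gene Slc12a1 was also highest in Umod, and it was highest in none of the other 7 genes. ZL rat 4 had the highest Slc12a1 and Umod of its group and the lowest value of all 7 others. Among ZF rats, rat 2 was highest in Slc12a1 and Umod, rat 5 was highest in all 7 others and lowest in Umod, and rat 4 was lowest in all 7 others. In ZF-SGLT2i, rat 3 was highest in Slc12a1 and Umod, and rat 6 was highest in 6 of the other genes. These orders are given as a description. The principal cell list, of collecting duct genes, summed to 616 in ZL rat 4, the lowest of the 12 rats, and to 815, 1012 and 745 in ZL rats 1 to 3. In ZF rats 2 to 5 it summed to 981, 1155, 814 and 1173. The intercalated cell list was likewise lowest in ZL rat 4 (1006) and ZF rat 4 (1029). A part of these lists in the values of the 9 genes was not tested.

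**Figure D3:**
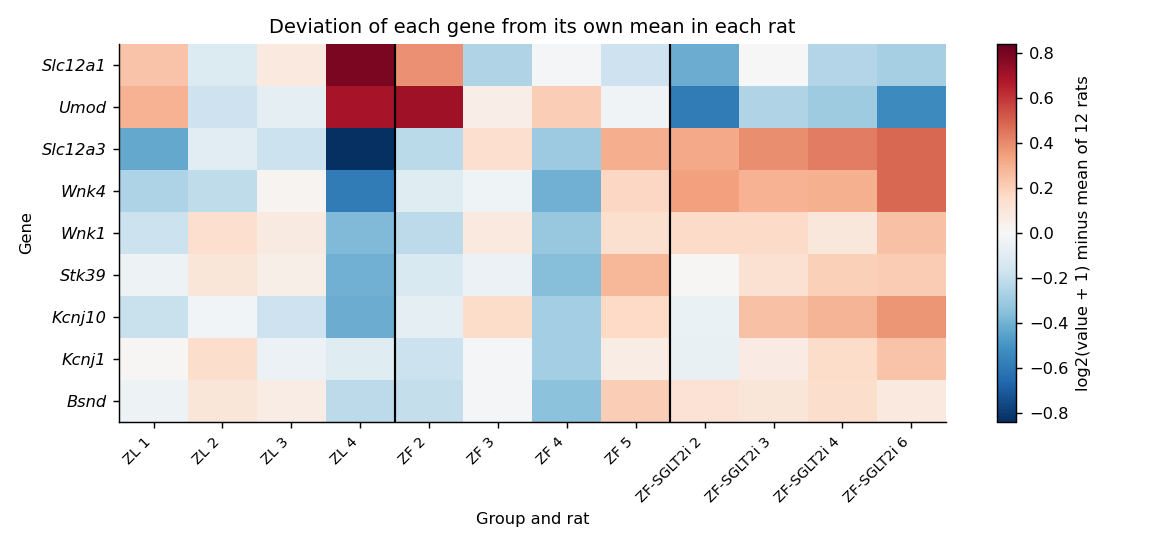
Deviation of log2(value + 1) from the mean of the 12 rats (colour scale, log2 units) for each of the 9 genes (rows) in each rat (columns, groups parted by black lines). In ZL rat 4 Slc12a1 and Umod are red and the other 7 genes blue, and in the ZF-SGLT2i rats Slc12a3 and Wnk4 are red and Umod is blue.

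Ratios of gene pairs within a rat remove what both genes share in that rat. They were compared between groups only, since the level of a ratio also depends on transcript lengths. There were 12 such comparisons (4 ratios in 3 comparisons), and the smallest exact two-sided permutation p of 0.0286, the lowest that 4 against 4 can give, became 0.049 when adjusted over the 12. The ratios were picked with earlier results of these rats known.

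The ratio of Umod to Slc12a1, both thick limb genes, was highest in ZF. Its log2 was 1.74, 1.63, 1.52 and 1.59 in ZL, 2.01, 1.99, 1.91 and 1.83 in ZF, and 1.51, 1.44, 1.64 and 1.43 in ZF-SGLT2i. All 4 ZF rats lay above all 8 others, although ZL and ZF overlapped in each gene alone. ZF differed from ZL by 0.32, and ZF-SGLT2i differed from ZF by -0.43 (exact permutation p = 0.0286 for each), while ZF-SGLT2i differed from ZL by -0.11 (exact permutation p = 0.17). Leaving out 1 rat at a time kept the first between 0.29 and 0.36 and the second between -0.47 and -0.40. The last ranged from -0.16 to -0.074.

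The ratio of Slc12a3 to Slc12a1, distal tubule over thick limb, had its lowest mean in ZL and its highest in ZF-SGLT2i. It was 0.88, 1.58, 1.29 and -0.08 on the log2 scale in ZL, 0.94, 1.95, 1.27 and 2.03 in ZF, and 2.29, 1.95, 2.23 and 2.32 in ZF-SGLT2i. ZF-SGLT2i did not overlap with ZL and overlapped with ZF. The ZF-SGLT2i mean exceeded that of ZL by 1.28 (exact permutation p = 0.0286) and that of ZF by 0.65 (exact permutation p = 0.0571), while ZF exceeded ZL by 0.63 (exact permutation p = 0.20). ZL rat 4 had the lowest ratio, and without it the first difference was 0.95 and the last 0.30.

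The ratio of Kcnj10 to Kcnj1, the basolateral over the apical potassium channel, was higher in both Zucker Fatty groups than in ZL. Its log2 was -3.48, -3.46, -3.41 and -3.60 in ZL, -3.19, -3.12, -3.29 and -3.18 in ZF, and -3.28, -3.11, -3.16 and -3.16 in ZF-SGLT2i. No Zucker Fatty rat overlapped with ZL. The difference from ZL was 0.29 in ZF and 0.31 in ZF-SGLT2i (exact permutation p = 0.0286 for each). ZF-SGLT2i differed from ZF by 0.02 (exact permutation p = 0.66), and by -0.012 to 0.056 with 1 rat left out. The ratio of Wnk4 to Wnk1 was -3.76, -4.04, -3.74 and -3.90 in ZL, -3.57, -3.80, -3.78 and -3.65 in ZF, and -3.50, -3.56, -3.48 and -3.45 in ZF-SGLT2i. The ZF-SGLT2i rats lay above all others. They exceeded ZF by 0.20 and ZL by 0.36 (exact permutation p = 0.0286 for each), and ZF exceeded ZL by 0.16 (exact permutation p = 0.17). Leaving out 1 rat at a time gave 0.10 to 0.20 for the difference between ZF and ZL.

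**Figure D4:**
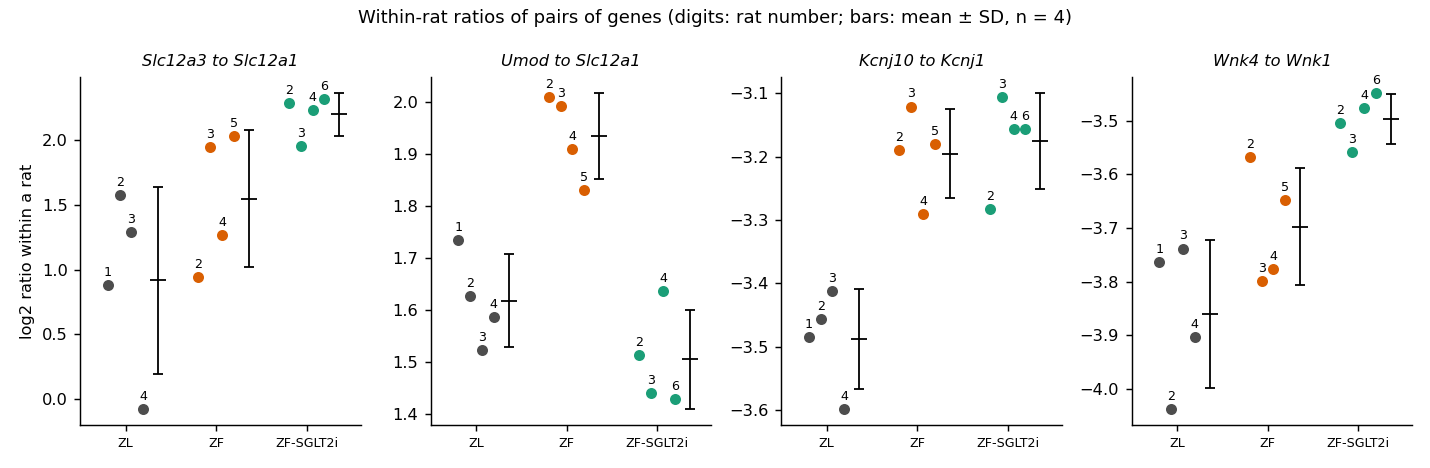
Log2 ratio of 4 gene pairs within each rat (y axes differ and do not start at 0), by group, with rat numbers and with the mean and SD of 4 rats as a bar. Umod to Slc12a1 is highest in the 4 ZF rats, and Slc12a3 to Slc12a1 and Wnk4 to Wnk1 are highest on average in ZF-SGLT2i.

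The sequences before the transcription starts of the 4 called genes are shown to let the reader see how unlike they are in base composition. They are the 250 bases before the start in RefSeq models of the rat assembly GRCr8, 5′ to 3′ on the strand of the gene, and each gene had 1 such window. Windows were found for all 9 genes, 11 windows in all. Capitals mark any match to a TATA box (TATAAA, strand of the gene), a GC box (GGGCGG or its reverse complement CCGCCC) or a single arm of the paired glucocorticoid receptor motif (AGAACA or its reverse complement TGTTCT).
Slc12a3 (chr19:10675051-10675300, minus strand): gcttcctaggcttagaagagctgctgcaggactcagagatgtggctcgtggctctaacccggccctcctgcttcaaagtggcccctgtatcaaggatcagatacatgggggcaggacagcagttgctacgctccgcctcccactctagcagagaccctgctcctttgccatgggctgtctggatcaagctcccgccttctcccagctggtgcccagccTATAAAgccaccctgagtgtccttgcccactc
Wnk4 (chr10:86702708-86702957, plus strand): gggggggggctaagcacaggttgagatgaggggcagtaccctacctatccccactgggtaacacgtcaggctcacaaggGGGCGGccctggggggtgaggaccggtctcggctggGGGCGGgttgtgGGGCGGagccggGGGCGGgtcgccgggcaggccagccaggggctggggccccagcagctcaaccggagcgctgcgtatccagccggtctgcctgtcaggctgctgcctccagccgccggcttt
Kcnj10 (chr13:87334260-87334509, plus strand): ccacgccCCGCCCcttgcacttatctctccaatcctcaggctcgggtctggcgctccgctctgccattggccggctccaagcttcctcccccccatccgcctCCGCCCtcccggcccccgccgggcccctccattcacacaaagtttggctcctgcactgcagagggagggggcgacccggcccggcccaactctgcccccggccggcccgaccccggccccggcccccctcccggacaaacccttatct
Umod (chr1:183261017-183261266, minus strand): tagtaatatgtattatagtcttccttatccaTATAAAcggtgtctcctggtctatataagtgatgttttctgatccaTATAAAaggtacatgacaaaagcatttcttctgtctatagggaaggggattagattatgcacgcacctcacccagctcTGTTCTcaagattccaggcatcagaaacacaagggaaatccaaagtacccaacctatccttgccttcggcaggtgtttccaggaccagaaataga

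Wnk4 (72.0% G or C) and Kcnj10 (72.4%) had GC-rich windows with 16 and 20 CpG dinucleotides, against medians of 51.2% and 5 over the 33469 windows of the RefSeq table. The Slc12a3 window had 59.2% G or C and 5 CpG, and the Umod window 40.8% and 3. The Slc12a3 TATA box began 32 bases before the start. Wnk4 held 4 GC boxes and Kcnj10 held 2, where 30.5% of all windows held at least 1. Umod held 2 matches to TATAAA, 219 and 173 bases before the start, where 8.06% of all windows held the letters, and 1 single arm of the glucocorticoid receptor motif 95 bases before it, where 17.5% did. The E-box CACGTG (5.59% of all windows), the D-box TTATGTAA (0.828%) and the estrogen-related receptor site TCAAGGTCA (0.388%), each searched on both strands, were in none of the 11 windows. No searched motif was shared by all 4 genes. The TATA box and GC box were added to the search after the sequences had been seen, and the searched motifs do not overlap in these windows. A match is a description of letters and not a site in use.

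The other genes of the pathway were taken from lists. Of 11 tested regulators of the WNK cascade, 1 fell in ZF against ZL, 0 were called in ZF-SGLT2i against ZF and 3 fell in ZF-SGLT2i against ZL, with a median log2 fold change of -0.04 in the last. As shares these are 9.09% and 27.3% in the comparisons with ZL, beside 18.8% and 27.4% of all genes, so the list was called no more often than genes at large. In ZF-SGLT2i against ZF limma, edgeR and DESeq2 each called 0 of them, beside 3.15%, 3.16% and 5.51% of all genes. There 0 had an unadjusted limma p under 0.05, beside 17.2% of all genes. Ppp1r1a, protein phosphatase inhibitor-1, which is enriched in these segments, was the one that fell in both comparisons with ZL. It measured 183, 158, 169 and 195 in ZL, 133, 106, 111 and 125 in ZF, and 109, 117, 121 and 119 in ZF-SGLT2i. All 8 Zucker Fatty rats were below all ZL rats, with log2 fold changes of -0.57 in ZF and -0.59 in ZF-SGLT2i (SE 0.08, limma adjusted p = 0.00065 and 0.00022). Cul3, the ubiquitin ligase scaffold that targets WNK kinases (-0.16, limma adjusted p = 0.045), and Ppp1ca, a phosphatase catalytic subunit (-0.18, limma adjusted p = 0.030), fell in ZF-SGLT2i against ZL only by these small amounts. Both calls were lost with quantile normalization and without ZL rat 4 or ZF-SGLT2i rat 2, 3 or 6, which left 1 gene of the list called. Sgk1, an aldosterone-induced kinase, ranged from 262 to 1027 among ZL rats and was not called.

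Among 12 partner channels, pump subunits and trafficking factors, 4 rose and 3 fell in ZF-SGLT2i against ZL, 1 rose and 3 fell in ZF against ZL, and 0 were called by limma in ZF-SGLT2i against ZF (1 by DESeq2, 0 by edgeR and 5 at an unadjusted limma p under 0.05). The shares called were 58.3% against ZL in ZF-SGLT2i and 33.3% in ZF, beside 27.4% and 18.8% of all genes. In ZF-SGLT2i against ZF limma called 3.15%, DESeq2 5.51% and edgeR 3.16% of all genes, and 17.2% had an unadjusted limma p under 0.05. The gene that rose in ZF was Maged2, a call lost without ZF rat 5 (0.22, adjusted p = 0.052). Kcnma1, the large-conductance potassium channel of the distal nephron, measured 7.90, 11.1, 9.64 and 6.52 in ZL, 10.4, 13.7, 10.3 and 14.8 in ZF, and 17.4, 19.4, 19.9 and 17.1 in ZF-SGLT2i. The ZF-SGLT2i rats were above all others, 2.01-fold over ZL (log2 fold change 1.01, SE 0.15, limma adjusted p = 0.00041). Maged2, a factor for the surface expression of NKCC2 and NCC, rose in ZF-SGLT2i against ZL by 0.49 (limma adjusted p = 0.00033), and Mal, an apical sorting protein, by 0.47 (limma adjusted p = 0.0023). Sorl1, a sorting receptor for NKCC2 regulation (-0.42, limma adjusted p = 0.00061), Fxyd2, a subunit of the sodium pump (-0.35, limma adjusted p = 0.0077), and Hpn, a protease that processes uromodulin (-0.20, limma adjusted p = 0.046), fell in ZF-SGLT2i against ZL. There the Hpn call was lost in 13 of 21 alternative fits. The same 3 genes fell in ZF against ZL: Sorl1 by -0.34, Fxyd2 by -0.45 and Hpn by -0.34 (limma adjusted p = 0.0043, 0.0035 and 0.0052). In ZF the Hpn call was kept in 20 of 21 alternative fits. Atp1b1, another subunit of that pump, was not called in any comparison.

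Of 10 hormone receptors and signalling genes, 4 rose and 2 fell in ZF-SGLT2i against ZL, 1 fell in ZF against ZL and 1 fell in ZF-SGLT2i against ZF. The shares called were 60.0% and 10.0% in the comparisons with ZL, beside 27.4% and 18.8% of all genes. In ZF-SGLT2i against ZF the share was 10.0%, beside 3.15% of all genes. Pth1r, the parathyroid hormone receptor, which proximal tubule cells express too, was the one called in ZF-SGLT2i against ZF. It measured 332, 346, 344 and 321 in ZL, 302, 304, 329 and 330 in ZF, and 252, 241, 275 and 244 in ZF-SGLT2i. All ZF-SGLT2i rats were lowest, with a log2 fold change of -0.32 against ZF (SE 0.06, limma adjusted p = 0.0091) and -0.41 against ZL (limma adjusted p = 0.00032). The genes that rose against ZL were the mineralocorticoid receptor Nr3c2 (0.48), Hsd11b2, the enzyme that keeps cortisol and corticosterone from that receptor (0.55), the adenylyl cyclase Adcy6 (0.41) and the vasopressin receptor Avpr2 (0.43), and these are also collecting duct genes. The Avpr2 call was lost without ZL rat 3 or 4 or ZF-SGLT2i rat 2, 3 or 6. Gcgr, the glucagon receptor, fell by 0.61 in ZF-SGLT2i and by 0.42 in ZF against ZL, the latter a call (limma adjusted p = 0.040) that was lost without ZL rat 1, 3 or 4 or ZF rat 3, 4 or 5. Casr, the calcium-sensing receptor, and Ptger3, a prostaglandin receptor, were not called in any comparison.

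The labelled segments were present in every rat, since the 17 measured identity genes of thick limb and distal tubule were above 0 in all 12. Of these, 6 rose and 2 fell in ZF-SGLT2i against ZL, 1 rose and 2 fell in ZF against ZL, and 2 rose and 1 fell in ZF-SGLT2i against ZF. The shares called were 47.1%, 17.6% and 17.6% in that order, beside 27.4%, 18.8% and 3.15% of all genes. Without ZL rat 4, 3 of the 6 that rose in ZF-SGLT2i against ZL, Esrrg among them, were not called. Cldn10, a claudin with a thick limb form and a proximal tubule form, which are summed here, was called lower in all 3 comparisons. It measured 74.7, 57.2, 78.2 and 102 in ZL, 59.5, 47.0, 61.1 and 40.9 in ZF, and 28.9, 29.98, 35.6 and 25.7 in ZF-SGLT2i. Every ZF-SGLT2i rat was below every other rat, while ZL and ZF overlapped (exact permutation p = 0.0857), with log2 fold changes of -0.56 in ZF against ZL, -0.76 in ZF-SGLT2i against ZF and -1.33 in ZF-SGLT2i against ZL (SE 0.16, limma adjusted p = 0.028, 0.022 and 0.00011). The call against ZL in ZF was lost in 7 of 21 alternative fits, among them the fit of only the 2 groups and those without ZL rat 1, 3 or 4 or ZF rat 3 or 5 (log2 fold changes -0.70 to -0.43 over the 21). The call in ZF-SGLT2i against ZF was lost without ZF rat 2 or 4 or ZF-SGLT2i rat 2, 3 or 6, and that in ZF-SGLT2i against ZL was kept in all 21. Of the proximal tubule markers, Lrp2 (-0.75) and Miox (-0.68) fell in ZF-SGLT2i against ZL too, and their part in the Cldn10 values was not tested. The thick limb claudins Cldn16 and Cldn19 were not called, at 0.24 and -0.05 against ZL. Egf, the epidermal growth factor precursor, measured 2188, 2171, 2139 and 1735 in ZL, 1275, 1218, 1117 and 1389 in ZF, and 1040, 1068, 1355 and 973 in ZF-SGLT2i. Both Zucker Fatty groups lay wholly below ZL, by 0.72 in ZF (a log2 fold change of -0.72, limma adjusted p = 0.0014) and by 0.90 in ZF-SGLT2i (-0.90, limma adjusted p = 0.00015), with a log2 fold change of -0.18 between them (limma adjusted p = 0.46).

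The identity list also holds genes of the distal convoluted and connecting tubule, and no test compared them with each other. Trpv5, the apical calcium channel, measured 44.1, 52.5, 40.5 and 35.6 in ZL, 61.3, 65.4, 58.5 and 75.4 in ZF, and 67.6, 65.3, 75.0 and 76.5 in ZF-SGLT2i. It was above ZL in all 8 Zucker Fatty rats, by 0.59 in ZF and 0.72 in ZF-SGLT2i on the log2 scale (SE 0.11, limma adjusted p = 0.0031 and 0.00047). Calb1, a calcium-binding protein, and Slc8a1, the sodium-calcium exchanger, were not called in any comparison, at 0.18 and 0.20 in ZF-SGLT2i against ZL. The transcription factor genes Pou3f3 (0.24, limma adjusted p = 0.029) and Esrrg (0.29, limma adjusted p = 0.042) were the ones that rose in ZF-SGLT2i against ZF, where 3 genes of the list were called in all and 0 to 1 without ZF rat 2, 3 or 4 or without ZF-SGLT2i rat 2, 3 or 6. The Esrrg call was lost in 11 of 21 alternative fits, edgeR (adjusted p = 0.051) and quantile normalization (adjusted p = 0.051) among them. Sall3, a transcription factor of this segment, rose by 0.51 in ZF-SGLT2i against ZL (limma adjusted p = 0.021). Esrrg, Nos1, Avpr2, Cul3 and Ppp1ca lie outside the 30 genes the naming rule takes and were named after their values were seen, as were the listed genes named above as not called.

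Ptgs2 (cyclooxygenase 2) and Nos1 are known as genes of the macula densa, the sensor cells at the end of the thick limb, though whole cortex does not show which cells the reads came from. Ptgs2 measured 2.78, 3.64, 4.76 and 4.11 in ZL, 19.8, 22.1, 19.7 and 45.6 in ZF, and 21.5, 21.5, 31.8 and 33.0 in ZF-SGLT2i. Both Zucker Fatty groups were far above ZL, with log2 fold changes of 2.45 and 2.52 (SE 0.24, limma adjusted p = 3.1e-05 and 1.6e-05), and ZF-SGLT2i differed from ZF by 0.07 (limma adjusted p = 0.92). ZF rat 5, at 45.6, lay apart from its group. Nos1, neuronal nitric oxide synthase, was called in ZF-SGLT2i against ZL at 0.50 (limma adjusted p = 0.042) with means of 3.29 and 5.10, a call lost in 8 of the 12 fits without 1 rat.

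**Figure D5:**
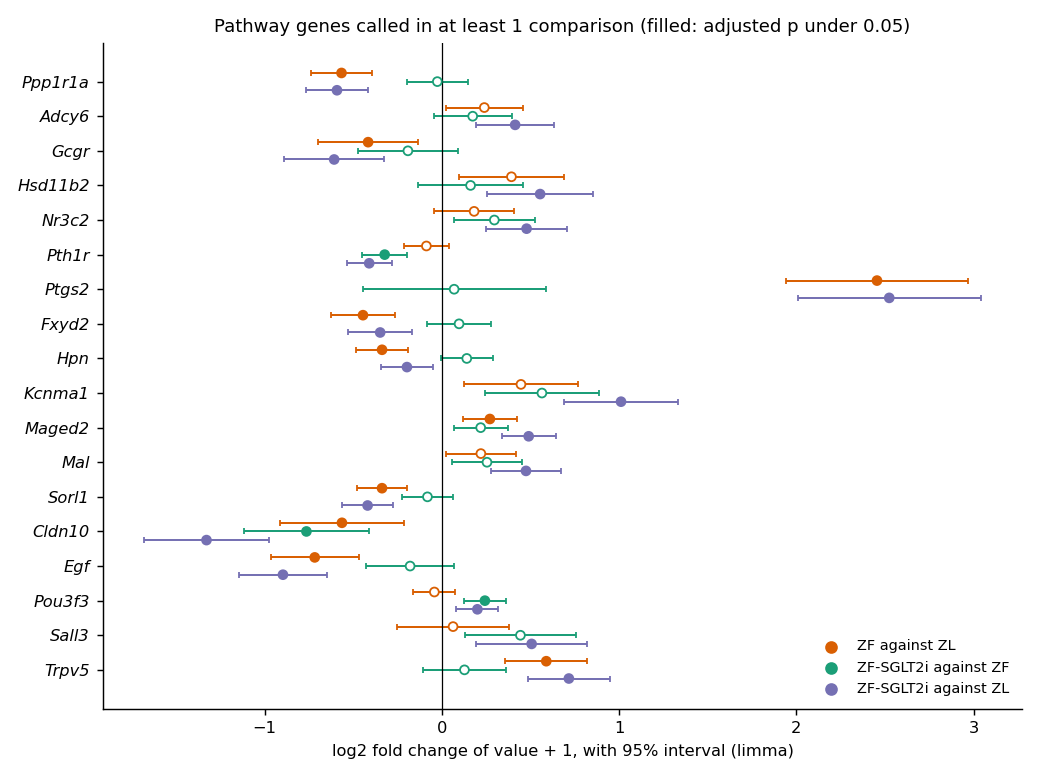
Log2 fold change on the log2(value + 1) scale (x axis) with its 95% interval for 18 of the named pathway genes outside the clock list, in the 3 comparisons; filled points had a limma adjusted p under 0.05. Ptgs2 stands far to the right in both comparisons with ZL (2.45 and 2.52), and Cldn10 far to the left in ZF-SGLT2i against ZL (-1.33).

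Genes of other kinds were called in the same comparisons too. Of 13 clock genes tested, 8 rose and 3 fell in ZF against ZL (84.6%, beside 18.8% of all genes). In ZF-SGLT2i against ZL 9 rose and 3 fell (92.3%, beside 27.4%). In ZF-SGLT2i against ZF 0 were called by limma, edgeR or DESeq2 (3.15%, 3.16% and 5.51% of all genes). There 2 of the clock genes had an unadjusted limma p under 0.05, as did 17.2% of all genes. Dbp, a clock output factor, measured 25.3 to 65.9 among ZL rats, 182 to 297 among ZF rats and 257 to 334 among ZF-SGLT2i rats. Arntl, a core activator, measured 30.4 to 51.4 among ZL rats, 1.42 to 7.01 among ZF rats and 1.82 to 2.86 among ZF-SGLT2i rats. ZL lay apart from both Zucker Fatty groups in both genes, and the time of day at which each rat was sampled is not given in the sources used here. Slc12a3, Wnk4, Kcnj10 and Umod were called in the comparison with ZL, and the part of the clock difference in that was not tested.

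Collecting duct and proximal tubule genes were called as well. Of all genes tested, 18.8% were called in ZF against ZL, 3.15% in ZF-SGLT2i against ZF and 27.4% in ZF-SGLT2i against ZL. The shares of the lists below stand beside these, and some were close to them. In ZF-SGLT2i against ZL 4566 of the 11633 genes had an unadjusted limma p under 0.05. Of 6 principal cell markers, 4 (66.7%) rose in ZF-SGLT2i against ZL and 1 (16.7%) in each other comparison. Their summed value was 616 to 1012 among ZL rats, 814 to 1173 among ZF rats and 1298 to 1640 among ZF-SGLT2i rats. Aqp2, the water channel and the most abundant of them, was 340 to 594 among ZL rats, 422 to 632 among ZF rats and 781 to 962 among ZF-SGLT2i rats. The ZF-SGLT2i rats were above all others in both. Of 5 intercalated cell markers, 2 (40.0%) rose in ZF-SGLT2i against ZL, and 0 were called in the other comparisons. Their sum was 1006 to 1592 among ZL rats, 1029 to 1519 among ZF rats and 1625 to 1685 among ZF-SGLT2i rats. Of 8 proximal tubule markers, 3 (37.5%) fell in ZF-SGLT2i against ZL, and 1 rose and 1 fell (25.0%) in ZF against ZL. In ZF-SGLT2i against ZF 1 (12.5%), Slc22a6, fell (log2 fold change -0.59, limma adjusted p = 0.0084). The markers summed to 19349 to 22776 among ZL rats, 15186 to 19740 among ZF rats and 12681 to 16753 among ZF-SGLT2i rats, led by Lrp2, which encodes megalin. Of the 6 injured tubule markers, 5 (83.3%) rose in ZF against ZL, with a median log2 fold change of 1.06. In ZF-SGLT2i against ZL 4 rose and 1 fell (83.3%, median 0.77), and in ZF-SGLT2i against ZF 1 fell (16.7%). These markers summed to 300 to 346 among ZL rats, 506 to 1756 among ZF rats and 372 to 1028 among ZF-SGLT2i rats. Slc14a2, a urea transporter that marks inner medulla, measured 0.18, 0.35, 0 and 0.71 in ZL, 0.38, 0, 0 and 0.66 in ZF, and 0.29, 1.51, 0.91 and 3.34 in ZF-SGLT2i. These are at most 30 reads, and 3 of the ZF-SGLT2i rats lay above all 8 others. Slc14a2 did not pass the filter and was not tested. The other 3 genes of the inner medulla and thin limb list were tested, though whole cortex does not show which cells their reads came from. Of these 3, 1 rose and 2 fell in ZF against ZL (100%), and 1 rose and 1 fell in ZF-SGLT2i against ZL (66.7%). In that comparison 3 of 5 podocyte markers rose, 1 of 4 fibroblast markers fell and none of 4 endothelium or 4 macrophage markers was called by limma (1 and 0 at an unadjusted p under 0.05), and the sums of the podocyte, endothelium, macrophage and fibroblast lists in ZF-SGLT2i overlapped those of ZL in that comparison. In ZF-SGLT2i against ZF 3 of the 4 fibroblast markers (75.0%) fell, and their sum was 362 to 574 among ZF rats and 272 to 293 among ZF-SGLT2i rats, without overlap. Genes of these lists were above 0 in every rat apart from Slc14a2. The share of reads from ribosomal RNA (Rn28s plus Rn45s) was 7.25% to 12.0% among ZL rats, 8.82% to 12.0% among ZF rats and 11.5% to 15.2% among ZF-SGLT2i rats, with ZF-SGLT2i rats 3 and 6 the highest. The part of these shifts in the changes of the 9 genes was not tested.

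The genes most like each of the 9 over the 12 rats were sought among 8622 others with a mean value of at least 10, by Pearson's r of log2(value + 1), with group differences included. Slc12a3 was most like Slc26a4, the anion exchanger pendrin of intercalated cells (r = 0.98), and the transcription factor gene Tfcp2l1 (r = 0.98). For Wnk1, the calcium release channel gene Itpr2 had an r of 0.97. Umod was most like the sugar transporter genes Slc5a10 (r = 0.95) and Slc2a5 (r = 0.90), whose means fell from 112 and 95.5 in ZL over 74.9 and 74.4 in ZF to 29.99 and 49.8 in ZF-SGLT2i. Slc12a1 was most like Prkca and Ndc1 (r = 0.95 and 0.94), Wnk4 like Tjp3 and Ampd3 (both r = 0.97), and Kcnj10 like Cand2 and Chst9 (r = 0.96 and 0.95). Kcnj1 came closest to Fam81a and Sh2d4a (r = 0.96 and 0.95), Bsnd to Sf3a2 and Lnx1 (r = 0.95 and 0.94), and Stk39 to Nup214 and Gpr162 (both r = 0.94).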

How the data were processed

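RNA from kidney cortex of 12 rats was depleted of ribosomal RNA, made into stranded libraries and read from both ends. The submitters' processing notes name Trimmomatic 0.38, RSEM 1.3.0, Bowtie2, edgeR and the genome build rn6. The authors deposited signal values for 13151 genes, which are read counts scaled to library size. These equal edgeR CPM with TMM factors (largest relative gap 1.11e-15), and 100% of the values were whole multiples of a constant per rat within a relative tolerance of 1e-06, so the whole read counts could be recovered. The deposited table had 0 columns of other samples. Every gene has at least 12 reads over the rats, so genes with fewer are not analysed here. Reads on the ribosomal genes Rn28s and Rn45s were 7.25% to 15.2% of a library. No 2 rats of a group were copies (chi-square per gene 5.07 to 46.0).

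Genes that reached a value of 1 in 4 or more rats were fitted with limma 3.58.1 (R 4.3.3) on log2(value + 1), with all 12 rats in 1 fit, eBayes with trend and Benjamini-Hochberg adjustment. A fold change on this scale understates the change of low genes. Single values were compared by an exact two-sided permutation test over the 70 assignments of 4 against 4. Other settings tried were no filter, a pseudocount of 0.1, a mean value of at least 10, median ratio scaling, quantile normalization, only the 2 groups compared, a replicate block, edgeR 4.0.16 and DESeq2 1.42.0 on the recovered reads, and leaving out each rat. The scripts were tested on simulated data. The 9 genes, the gene lists and the ratios were chosen with earlier results of these data known. The text names the 9 genes, up to 30 pathway genes called in at least 1 comparison with the smallest adjusted p, and the genes most like each of the 9. It also names, outside this rule, 5 called pathway genes past the 30 and some listed genes that were not called or mark other cells. Of the listed genes, Klhl3, Klhl2, Cldn14, Pvalb, Trpm6, Emx1, Pappa2, Hlf and Bhlhe41 are not analysed here. Some listed or similarly patterned genes are counted in the totals but not reported here by name. Of the clock genes the rule takes in, Dbp and Arntl are described as examples. Gene names and promoter windows are from RefSeq GRCr8. No protein sequences were used here.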

Additional observations from a re-analysis of the deposited data

Results flagged for a closer look

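In 117 groups of 4 rats (39 genes in 3 groups), 4 had a rat whose gap to its nearest neighbour was past the 95% critical value of Dixon's test. About 1 in 20 groups, or 5.85 here, would be picked out by chance. None of the 4 was a value of the 9 salt transport genes. ZF rat 5 had a Ptgs2 value of 45.6, above a range of 19.7 to 22.1 in the rest of its group. Egf in ZL rat 4 was 1735, against 2139 to 2188 in the other ZL rats. Tef, a clock gene, reached 149 in ZL rat 4, beside 89.1 to 98.7 in rats 1 to 3. ZF rat 5 had the lowest Sorl1 of its group at 181, below a range of 214 to 218.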

How the results depend on the processing

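With 4 rats in a group, small changes could not be told from 0. In ZF-SGLT2i against ZL, Slc12a3 and Wnk4 were called in all 21 alternative fits (log2 fold changes 0.64 to 1.00 and 0.50 to 0.71), and of the 567 alternative values of the 9 genes 527 kept their direction and their side of the threshold. The 108 alternative values of the ratios all did so or moved by less than 1 SD. Of the alternative values of called pathway genes, 1201 stayed called, 117 did not and 0 reversed. No cause of the changes below was tested.

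Quantile normalization called 1 of the 9 genes in ZF against ZL, Slc12a3 (0.64), beside 2045 of all 11633 genes. It turned Kcnj1 (0.094) and Bsnd (0.010) to higher there. In ZF-SGLT2i against ZL it called Kcnj1 (0.31) and Wnk1 (0.50) and lost Umod (-0.26), and it called 3075 of all genes. The fit of only the 2 groups called 2 of the 9 genes in ZF-SGLT2i against ZF, Umod (-0.65) and Wnk4 (0.45), beside 477 of all genes. DESeq2 called the same 2 there (-0.68 and 0.43) and 641 of all genes, where the main fit called 366. edgeR and DESeq2 called Slc12a1 (both -0.52) in ZF-SGLT2i against ZL, so that each called 5 of the 9 (27.6% and 28.2% of all genes). Quantile normalization moved the share of higher calls in ZF against ZL from 43.6% to 53.9%.

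Rat numbers are shared between groups but did not pair the rats: deviations of same-numbered rats correlated at -0.376 to 0.253 over 9 pairs, and 1 rat correlated best with its own number. With the number as a replicate block, 2 of the 9 genes were called in ZF-SGLT2i against ZL, since Umod (-0.53) and Kcnj10 (0.36) were not. In ZF against ZL the block turned Wnk1 (-0.10) and Stk39 (-0.10) to lower. Among called pathway genes, the calls of Pth1r (-0.29), Pou3f3 (0.25) and Esrrg (0.31) in ZF-SGLT2i against ZF were lost with the block. Some calls of pathway genes in the comparisons with ZL were lost too. Of all genes, the block called 807 in ZF against ZL and, for the treated rats, 223 against ZF and 1502 against ZL.

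Leaving out 1 rat at a time gave 0 to 2 of the 9 genes in ZF-SGLT2i against ZF and 2 to 5 in ZF-SGLT2i against ZL, and 0 in ZF against ZL. Of all genes, 1389 to 2453 were then called in ZF against ZL. For the treated rats the count was 176 to 570 against ZF, and 2241 to 3302 against ZL. In ZF against ZL the log2 fold change then ranged from -0.10 to 0.22 for Umod, -0.16 to 0.022 for Bsnd, -0.091 to 0.083 for Wnk1 and -0.11 to 0.10 for Stk39. In ZF-SGLT2i against ZF it ranged from -0.74 to -0.50 for Umod and 0.34 to 0.53 for Wnk4, and in ZF-SGLT2i against ZL from -0.61 to -0.31 for Slc12a1, -0.72 to -0.43 for Umod and 0.34 to 0.50 for Kcnj10.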
